A study of Homo sapiens with 20 samples.

Results

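In RKO cells, 7077 open chromatin regions were listed only where a hairpin against METTL3 was combined with olaparib. They were chosen from the 34510 regions on chromosomes 1 to 22 in the list of RKO shMETTL3 cells given olaparib. A member is a region of that list that met, by even 1 bp, no interval of the 4 other RKO lists. Members made up 20.5% of the regions of that list. It is the longest RKO list, with 35455 intervals, while shControl with olaparib has 25855, untreated shMETTL3, the list of the knockdown alone, only 6916, and untreated shControl 21210 (scored) and 27978 (merged). The rule used the intervals of these 5 RKO lists, so the number of members, their scores and their widths are descriptions and support nothing further. Their state in LOVO cells, their place relative to genes and the bases under them were not used by the rule.

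RKO and LOVO are established human colon adenocarcinoma cell lines. ATAC-seq finds open chromatin as the stretches of DNA into which a transposase can insert sequencing adapters. In each line the labels list 2 samples of shMETTL3 with olaparib, 2 of shControl with olaparib, 2 of untreated shMETTL3 and 4 of untreated shControl, of which 2 are labelled as a second batch. Every group used here thus carries a short hairpin RNA. The dose and duration of olaparib, and whether a hairpin line is 1 clone or a pool, are not stated in the labels. The files hold 10 lists of intervals that stand for groups, and untreated shControl has 2 lists per line. Which of those holds the samples of the second batch is not stated. There are thus no values per sample, no spread between replicates and no test between groups. The depth behind each list is unknown, and a region that is missing from a list is not shown to be closed. "Open" below means only that an interval of the named list overlaps. Shares carry 95% exact (Clopper-Pearson) binomial intervals in brackets, which cover counting error only, and regions are not replicates of a condition.

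METTL3 is the catalytic subunit of the complex that places N6-methyladenosine (m6A) on RNA, a mark that reader proteins bind and that acts on the stability and translation of transcripts. The mark is also found on RNA that stays on chromatin, among it transcripts of LINE1 retroelements, which the series title names. Olaparib blocks poly(ADP-ribose) polymerases, enzymes that mark DNA breaks for repair, and it is used against tumours that lack homologous recombination. An ATAC-seq region away from genes is often an enhancer, bound by transcription factors such as AP-1 or TEAD, whereas one at a gene start is often a promoter.

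Sequences are shown for 5 members at gene starts, as examples of high score and not as typical ones. They belong to the highest-scoring members that cover at least 100 bases before the start of a gene with no interval at its ends in the 4 other RKO lists. Of 58 promoters of such genes under a member, 36 met that length. The sequences are RefSeq's on GRCh38.p14, given 5′ to 3′ on the strand of the gene. Capitals mark matches to searched motifs on either strand. The letters searched for AP-1 were TGANTCA and those for TEAD were GGAATG. For ETS factors the letters were CCGGAA, while SP and KLF factors were searched as GGGCGG. The NFY motif was spelled CCAAT, the motif of RUNX factors was TGTGGT, and that of GATA factors was AGATAAG.
PCDHB13: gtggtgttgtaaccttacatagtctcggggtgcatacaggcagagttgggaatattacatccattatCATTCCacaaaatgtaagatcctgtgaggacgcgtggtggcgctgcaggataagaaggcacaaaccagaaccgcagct
LINC02210-CRHR1: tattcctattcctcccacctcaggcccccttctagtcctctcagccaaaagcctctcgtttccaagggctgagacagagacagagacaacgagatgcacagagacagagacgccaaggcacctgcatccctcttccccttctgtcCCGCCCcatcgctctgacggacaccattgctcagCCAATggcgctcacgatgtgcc
GPR85: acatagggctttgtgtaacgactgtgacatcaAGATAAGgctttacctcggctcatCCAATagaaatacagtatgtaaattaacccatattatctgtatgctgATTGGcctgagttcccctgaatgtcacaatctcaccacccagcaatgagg
ODAPH: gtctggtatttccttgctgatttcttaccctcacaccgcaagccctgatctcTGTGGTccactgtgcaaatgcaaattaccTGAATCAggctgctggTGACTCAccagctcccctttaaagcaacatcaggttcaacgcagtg
SPINK13: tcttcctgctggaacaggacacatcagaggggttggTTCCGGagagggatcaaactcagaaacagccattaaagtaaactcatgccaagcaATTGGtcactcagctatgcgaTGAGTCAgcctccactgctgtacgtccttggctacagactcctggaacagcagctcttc

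The stretch of PCDHB13, a protocadherin gene, is chr5:141213774-141213918 on the plus strand, 145 bases with 1 TEAD match and 5 CpG. LINC02210-CRHR1 is a readthrough transcript into the receptor gene CRHR1. Its stretch is chr17:45620096-45620296 on the plus strand, 201 bases with 1 SP/KLF match and 1 NFY match. GPR85 encodes an orphan G protein-coupled receptor, and its stretch is chr7:113087756-113087908 on the minus strand, with 2 NFY matches, 1 GATA match and 2 CpG. ODAPH encodes a phosphoprotein of tooth enamel formation. Its stretch, chr4:75555923-75556065 on the plus strand, holds 2 AP-1 matches and 1 RUNX match. SPINK13 encodes a protease inhibitor of the Kazal type, and chr5:148268615-148268785 on the plus strand holds 1 match each of AP-1, ETS and NFY. The GC content of the 5 stretches ran from 42.5% (GPR85) to 57.7% (LINC02210-CRHR1). The members over PCDHB13, GPR85 and ODAPH were in no LOVO list, the one over LINC02210-CRHR1 was in 1 LOVO list and the one over SPINK13 in 3.

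Across the 143 promoter windows under a member (250 bases before to 50 after the start), the median GC content was 66.0% and the median CpG count was 24. The 7521 windows under another region of the list had 66.0% and 28, and all 15100 windows of the table had 63.0% and 22. The AP-1 motif stood in 9.09% (4.93 to 15.04) of the windows under a member, against 3.90% (3.47 to 4.36) of those under another region, and in 5.70% of all windows. For TEAD the shares were 13.3% (8.19 to 19.97) under a member and 9.76% under another region (11.7% of all windows), and for RUNX they were 11.9% and 8.22% (10.8%). The order was the other way for ETS, with 18.2% (12.2 to 25.5) under a member, against 35.5% (34.4 to 36.6) under another region (23.1% of all), and for NFY, with 28.7% (21.4 to 36.8) and 40.2% (39.04 to 41.3; 35.99% of all). SP/KLF stood in 70.6% and 75.8% (58.9%), and GATA in 0.699% and 0.851% (2.08%). The windows under no region of the list had AP-1 in 7.46%, TEAD in 13.6%, RUNX in 13.4%, NFY in 31.9% and ETS in 10.6%. For AP-1, TEAD, RUNX and NFY the interval of the windows under a member holds these shares. A match is a run of letters and shows no binding, and 143 windows are a small part of the members.

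Members were narrow and scored low within their list. Their width had a median of 168 bp and ran from 71 to 1071 bp, against a median of 323 bp and a range of 69 to 2395 bp in the rest of the list. Their score, a number of the peak caller that has no stated unit, had a median of 6.34 (1.75 to 26.4), against 8.90 (2.15 to 47.9) in the rest. The scores were also coarse. Of the members 1662 (23.5%, 22.5 to 24.5) had a score within 0.001 of a whole multiple of 0.66692, against 904 regions of the rest (3.30%, 3.09 to 3.51), where an even spread of scores would give 0.300%. The most frequent score was 6.6692, at 226 members, which is 10 such steps, and next came 5.33536, at 221 members, which is 8 steps. Members on a step lay at a gene end in 2.11% of cases, against 15.4% of the members off a step.

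**Figure D1:**
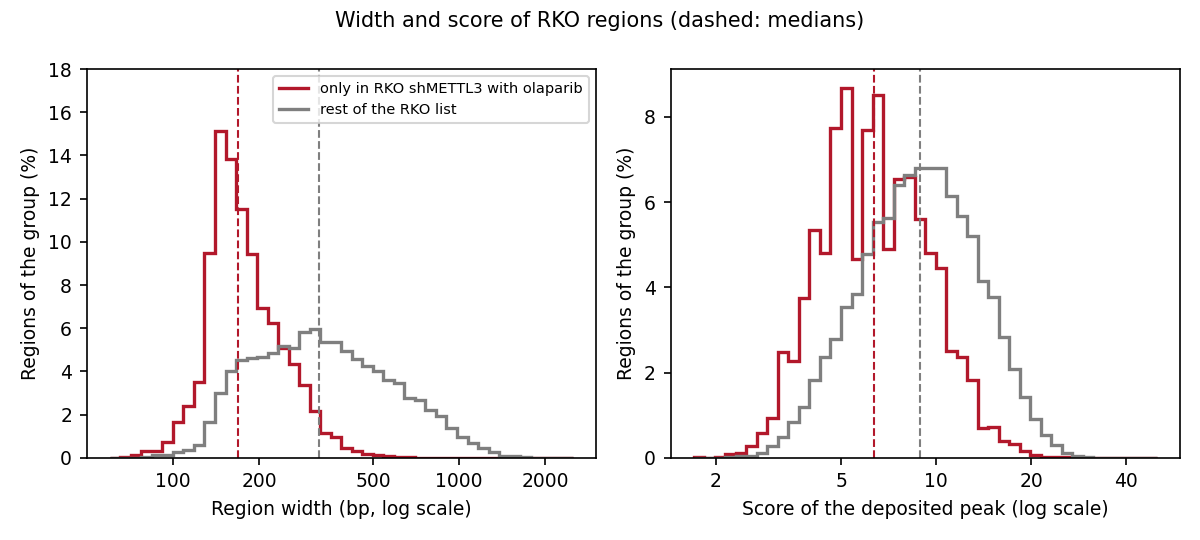
Histograms of region width in bp (left) and of the score of the deposited peak (right), both on log axes, as percent of each group; red, the 7077 regions listed only in RKO shMETTL3 with olaparib; grey, the other 27433 regions of that list. Dashed lines are medians, at 168 bp (red) and 323 bp (grey) and at scores of 6.34 (red) and 8.90 (grey); the red curve is uneven at scores below 10, where many members share a score.

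Most members lay far from any other RKO interval. The gap to the nearest interval of the 4 other RKO lists had a median of 19258 bp. It was under 100 bp for 113 members, 100 bp to 1 kb for 779, 1 to 10 kb for 1685, 10 to 100 kb for 3428 and 100 kb or more for 1072. The edge of the rule was thinly filled. Only 31 regions of the list were kept out by an overlap of 1 to 10 bp, and 17 members came within 10 bp. Just inside lay a region near PUSL1 that touched its neighbour with a gap of 0 bp, and regions near UBQLN4 and CNOT2 with gaps of 1 bp. Just outside lay regions near TXLNA, CLCA1 and PPIL3, each with an overlap of 1 bp. The lists that kept regions out differed in reach. A partner stood in the list of shControl with olaparib for 67.2% of the 34510 regions, in untreated shMETTL3 for 18.98%, and in the untreated shControl lists for 55.7% (scored) and 69.3% (merged). Taking untreated shMETTL3 out of the rule added only 74 regions, while taking out the merged shControl list added 2605.

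About 1 in 4 members was open in LOVO cells. Of the 7077 members, 1902 (26.9%, 25.8 to 27.9) met an interval of any of the 5 LOVO lists, against 20362 of the 27433 other regions of the list (74.2%, 73.7 to 74.7). Over the whole list the share was 64.5%. When the rest was weighted to the members' mix of 5 classes of score and 5 of width, it stood at 58.1%, still above the members. The 1728 regions that RKO shMETTL3 with olaparib shared only with shControl with olaparib lay between, with 713 open in LOVO (41.3%, 38.9 to 43.6). Regions of the rest are by rule open in a further RKO list, and an effect of the treatment on the members' share cannot be told apart from that.

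The members' share differed between LOVO lists and was largest in the list of the same treatment. In LOVO shMETTL3 with olaparib 22.03% of members were open, against 67.8% of the rest and 58.4% of the whole list. In LOVO shControl with olaparib the shares were 10.3% of members and 54.2% of the rest (whole list 45.2%). In untreated LOVO shMETTL3 they were 5.21% and 34.4% (whole list 28.4%). In untreated LOVO shControl they were 15.4% and 62.1% in the scored list (whole list 52.5%), and 14.2% and 58.7% in the merged list (whole list 49.5%). The LOVO list of shMETTL3 with olaparib is also the longest, with 51462 intervals, and was deposited in another form than the merged lists. Among the 3 scored lists, each held to its 32192 highest-scoring intervals, the members' shares were 12.7% in shMETTL3 with olaparib, 10.3% in shControl with olaparib and 11.6% in untreated shControl. The other regions of the list had 51.01%, 54.2% and 53.2% there. This comparison was added after the full lists had been seen.

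**Figure D2:**
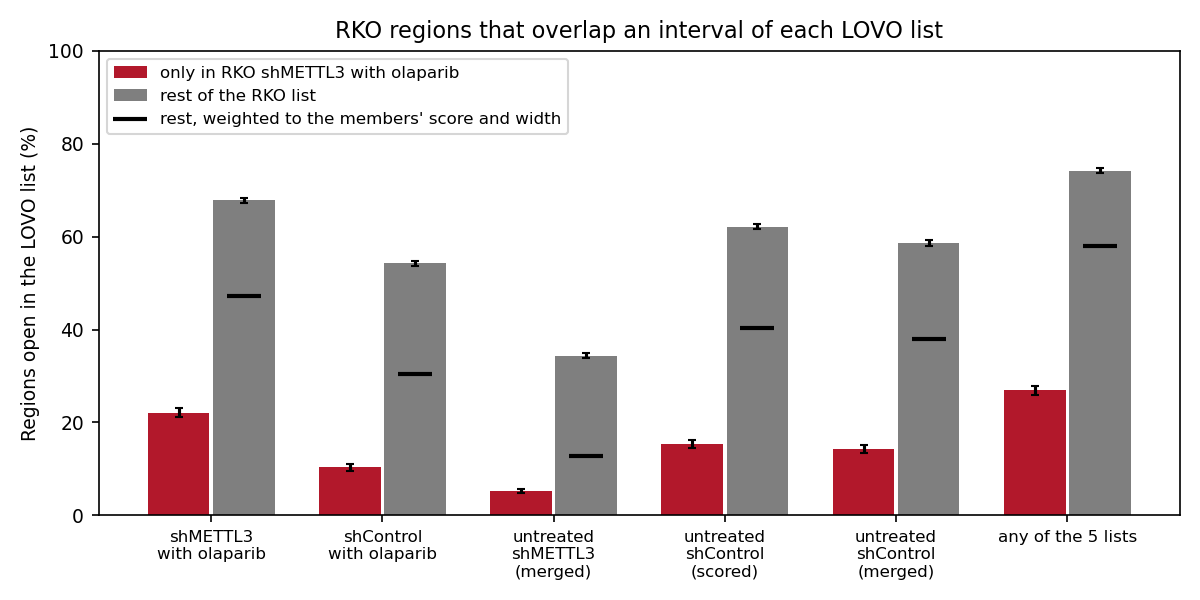
Percent of RKO regions that overlap an interval of each LOVO list and of any of the 5; red, regions listed only in RKO shMETTL3 with olaparib (n = 7077); grey, the rest of that RKO list (n = 27433); error bars, 95% exact binomial intervals; black marks, the rest weighted to the members' classes of score and width. Red bars run from 5.21% to 22.03% over single lists and reach 26.9% for any list, below the grey bars and the black marks in each list.

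Among members, 306 (4.32%) were open in all 5 LOVO lists, against 32.2% of the rest, and 5175 (73.1%) were in none. A further 450 members (6.36%) were open in LOVO shMETTL3 with olaparib and no other LOVO list, against 5.01% of the rest. The share open in LOVO was higher in higher classes of score. From the lowest to the highest of 5 classes it was 23.01%, 26.9%, 30.9%, 30.9% and 33.0% for members. In the rest of the list the same classes had 61.9%, 70.5%, 75.9%, 78.9% and 79.2%. Within each class the intervals of members and rest did not overlap. In the LOVO list of shMETTL3 with olaparib, the partners of members had a median score of 8.65, against 10.8 for the partners of the rest and 9.16 for all intervals of that list.

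**Figure D3:**
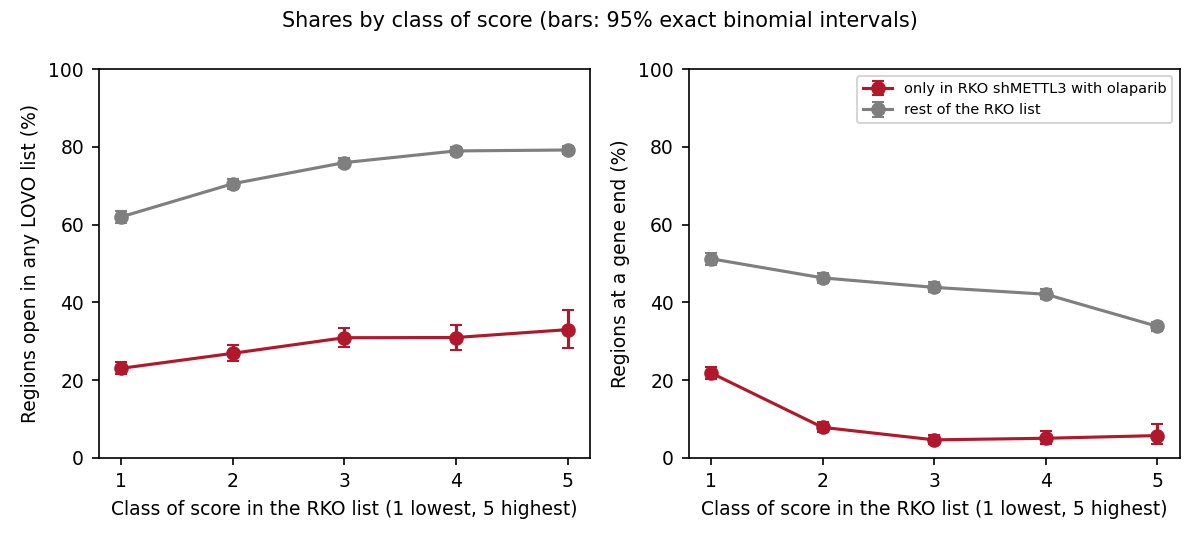
Percent of regions open in any LOVO list (left) and percent at a gene end (right) in 5 classes of score, taken from the whole RKO list of shMETTL3 with olaparib; red, regions listed only there; grey, the rest of the list; error bars, 95% exact binomial intervals. Members go up with score on the left, between 23.01% and 33.0%, and drop on the right after the lowest class, at 21.9%, to between 4.62% and 7.84% in the other classes.

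The 10 highest-scoring members open in all 5 LOVO lists lay nearest to PTPN1, UBE2U, RNF144B, CDKN2AIP, KRT34, GLIS3, CAV2, TANC2, COBL and AVL9. The first of them, chr20:50423268-50423475, lies between genes 87011 bp from PTPN1, which encodes a tyrosine phosphatase. It scored 15.6 in RKO and 24.6 in LOVO shMETTL3 with olaparib, 12.5 in LOVO shControl with olaparib and 17.2 in untreated LOVO shControl. The region nearest to CAV2, the gene of the membrane protein caveolin 2, lay 104141 bp away at chr7:116395518-116395675, with a score of 12.7 in RKO and 23.1 in LOVO shMETTL3 with olaparib. The region in the body of KRT34, a hair keratin gene, was chr17:41380134-41380300, with scores of 13.3 in RKO and 15.5 in that LOVO list. None of these 10 was at a gene end, and 6 lay between genes.

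The same rule applied in LOVO gave 10037 of 50323 regions (19.9%) listed only in LOVO shMETTL3 with olaparib. Of the RKO members, 447 (6.32%, 5.76 to 6.91) lay on such a LOVO region, against 1388 other regions of the RKO list (5.06%, 4.80 to 5.33), and the share in the whole RKO list was 5.32%. The 447 are 4.45% of the LOVO regions. Among RKO regions that were open in LOVO shMETTL3 with olaparib at all, the share was 28.7% (26.4 to 31.0) of members and 7.46% (7.09 to 7.85) of the rest. Weighted to the members' LOVO scores, the rest stood at 11.3%. As above, the rest is by rule open in a further RKO list. An effect of the treatment on these shares cannot be told apart from that. In the lowest class of LOVO score the shares were 50% of members and 24.4% of the rest, and in the highest they were 0.524% and 0.234%. The 5 highest-scoring members of this kind in RKO were nearest to KIF2B, TMTC1, BACH2, AP3S2 and BCAS1. The one in the body of BACH2, a transcription repressor gene, was chr6:90284321-90284503 and scored 17.4 in RKO and 11.6 in LOVO.

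Members lay away from gene ends. Within 1 kb of an end of a protein-coding gene lay 871 members (12.3%, 11.6 to 13.1), against 42.6% (42.0 to 43.2) of the rest, and 36.4% of the whole list. Weighted to the members' score and width, the rest had 29.2%. In gene bodies lay 42.5% of members and 29.5% of the rest, and between genes 45.2% and 27.9%. Exons, introns and UTRs could not be told apart with the gene table used. The distance to the nearest gene end had a median of 20937 bp for members and 2792 bp for the rest, and more than 100 kb away lay 20.1% and 7.68%. Of 19122 autosomal protein-coding genes, 10990 had an interval at an end in another RKO list, and the part of this in the members' low share at gene ends was not tested. The members open in a LOVO list lay at a gene end in 18.1% of cases, against 10.2% of the members in no LOVO list. Those open in all 5 LOVO lists did so in 8.497%, and 56.5% of them lay between genes.

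**Figure D4:**
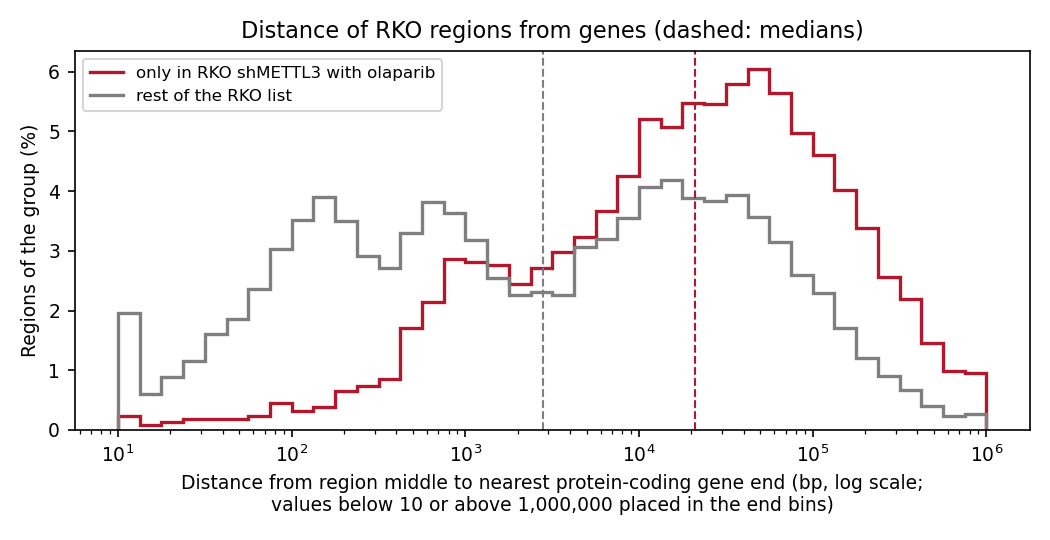
Distance in bp (log axis) from the middle of each region to the nearest end of a protein-coding gene, as percent of each group; red, regions listed only in RKO shMETTL3 with olaparib; grey, the rest of that list; dashed lines, medians at 20937 bp (red) and 2792 bp (grey). The grey curve has a broad hump well below 1 kb, where the red curve is low.

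Of the 871 members at gene ends, 430 (49.4%, 46.0 to 52.7) lay at an end that also had an interval of another RKO list within 1 kb. The 871 members reached 974 genes, of which 708 had such an interval at either end. The other 266 genes had such an interval only in RKO shMETTL3 with olaparib, out of 8132 genes with none in the 4 other lists (3.27%). The number was 557 when the merged untreated shControl list was left out of the rule, and 55 when only regions at or above the list's median score counted. The rule fixes these genes as it fixes the members. For 111 of the 266 a member lay within 1 kb of the gene's start in the promoter table, for 72 none did, and for 83 the start was not in that table. Such a start can lie inside a gene, so the members of the 72 are not shown to be at the opposite end. In LOVO 155 of the 266 (58.3%, 52.1 to 64.3) had an interval at an end in any list, against 1299 of the 7866 genes with none in all 5 RKO lists (16.5%, 15.7 to 17.4). Over all 8132 genes the share was 17.9%, and over the 10990 genes with an interval at an end in another RKO list it was 94.1%. In LOVO shMETTL3 with olaparib it was 53.4% of the 266 genes and 14.2% of the 7866, and in LOVO shControl with olaparib 30.8% of the 266 and 9.47% of the 7866. In untreated LOVO shMETTL3 it was 11.3% of the 266 and 3.61% of the 7866, and in untreated LOVO shControl (scored) 39.5% and 11.5%. By rule the 266 genes have an RKO interval at an end and the 7866 have none. An effect of the treatment on these shares cannot be told apart from that. A LOVO interval at either end counted, whether or not it met the member.

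Nearly all genes of DNA repair and m6A already had an interval at an end in another RKO list, so few could be opened, that is, have one only in RKO shMETTL3 with olaparib. Such genes without one numbered 2 in homologous recombination, 1 in the list of PARP enzymes and base excision repair, 1 in m6A, and 0 in end joining and in the checkpoint list. Of these, 1 was opened. METTL3 itself had an interval at an end in all 10 lists and no member assigned to it. This does not check the knockdown, since a hairpin acts on the transcript. Of 22 m6A writers, erasers and readers, 21 had an interval at an end in another RKO list and none was opened. A member lay within 50 kb of 6 of them (27.3%, beside 20.6% of all autosomal genes). Members were 7 of their 41 list regions (17.1%), near the 16.8% of all assigned regions. RBM15, a subunit of the writer complex, had 1 between genes 3990 bp away. ZCCHC4, which methylates ribosomal RNA, had 1 in its body with a score of 8.92, ALKBH5, an m6A eraser, had 1 with a score of 5.66, and the reader YTHDF3 had 1 with a score of 4.38. None of the 7 members near m6A genes was open in LOVO.

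Of 28 genes of homologous recombination and Fanconi anaemia, which repair breaks and crosslinks, only RAD54B and FANCL had a member within 50 kb. This was 7.14% of the genes, beside 20.6% of all autosomal genes. Both members were away from gene ends. They were 3.92% of the 51 list regions assigned to these genes, where members were 16.8% of all assigned regions. Among 18 genes of end joining and 53BP1 signalling, which join breaks without a template, 6 had a member nearby (33.3%). Members were 15.8% of the list regions of these 18 genes, near the share of all assigned regions. The 6 genes include LIG4, the ligase of that pathway, POLM, a polymerase that fills ends, RIF1, which shields ends from resection, and SHLD1 of the shieldin complex. Of 23 genes that encode PARP enzymes or act in base excision repair, 4 had a member nearby (17.4%), and members were 11.8% of their list regions. PARG, whose product removes poly(ADP-ribose), was the gene of this list that was opened. Its member was chr10:49941360-49941518, 589 bp from the gene end, with a score of 4.002, which lies on a step of 0.66692, and it was in no LOVO list. The same member lies within 1 kb of the start of TIMM23B, which it opened too. Both genes have near-identical copies on chromosome 10, so this value is uncertain. The others were HPF1, a cofactor that directs PARP to serine, and the glycosylase genes SMUG1 and NEIL2. In the ATM and ATR checkpoint list, 3 of 17 had a member nearby (17.6%, with 11.1% of list regions), at TOPBP1, WEE1 and CDC25C. In DNA replication and cell cycle 3 of 27 did (11.1%, with 13.7% of list regions), CDC45, CCNE1 and CCNE2.

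In RKO, 5 lists of pathways and targets had the largest shares of genes with a member within 50 kb, beside 20.6% of all genes. As a share of their assigned list regions, however, members were near the 16.8% of all assigned regions for p53 targets (17.6%) and TGF-beta signalling (16.4%), below it for AP-1 genes (12.4%), and above it for YAP and TEAD targets (30.2%) and Wnt (25.6%). These lists also had more list regions per gene than genes at large, with 105 regions for the 21 AP-1 genes and 28098 for all 19122 genes. Whether this accounts for their shares was not tested. For YAP and TEAD targets, which answer to cell contact and tension, it was 10 of 16 genes (62.5%), and members were 16 of their 53 list regions (30.2%). WWTR1, which encodes the co-activator TAZ, had 2 members in its body with scores of 13.1 and 6.23. TEAD1, a DNA-binding partner of YAP, had 2, of which 1 was open in all 5 LOVO lists. TEAD2 had 1 at a gene end, and TEAD3 had 2 at a gene end with scores of 2.87 and 3.14. Of the 16 members 3 were open in LOVO. For p53 targets it was 12 of 24 genes (50%), and 13 of 74 regions (17.6%). CDKN1A, which arrests the cell cycle, had a member 18243 bp away with a score of 8.48, and MDM2, which degrades p53, had one in its body with a score of 3.98. BBC3 and PMAIP1, which promote apoptosis, had 1 each, that of PMAIP1 at a gene end with a score of 6.21. No p53 target was opened.

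For AP-1 and immediate early genes, which answer to growth signals and stress, it was 10 of 21 genes (47.6%), and 13 of 105 regions (12.4%). JUN had 2 members at its gene end, with scores of 3.76 and 2.10. JUND had 2, and ATF3 and MAFF, both bZIP factor genes, had 1 each. MAFK, a small Maf gene, was opened by a member of 196 bp with a score of 3.20. For Wnt targets and regulators it was 8 of 18 (44.4%), with 11 of 43 regions (25.6%). AXIN2, a feedback inhibitor of the pathway, had 1 member at a gene end with a score of 4.35, ZNRF3, an inhibitor at the receptor, had 2, NKD1 had 1 with a score of 9.01, and CCND1, the cyclin D1 gene, had 2. EPHB2, a receptor that sorts crypt cells, and TNFRSF19 were opened, with scores of 3.36 and 7.66 and no LOVO list open at these members. For TGF-beta signalling it was 7 of 20 (35.0%), with 11 of 67 regions (16.4%). TGFBR1, the type I receptor gene, had 2 members in its body, SMAD4 and SMAD7 had 1 each. SKI, a repressor of the pathway, and INHBA, an activin subunit gene, were opened. The members at these 2 gene ends, with scores of 5.64 and 9.69, were both open in all 5 LOVO lists.

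**Figure D5:**
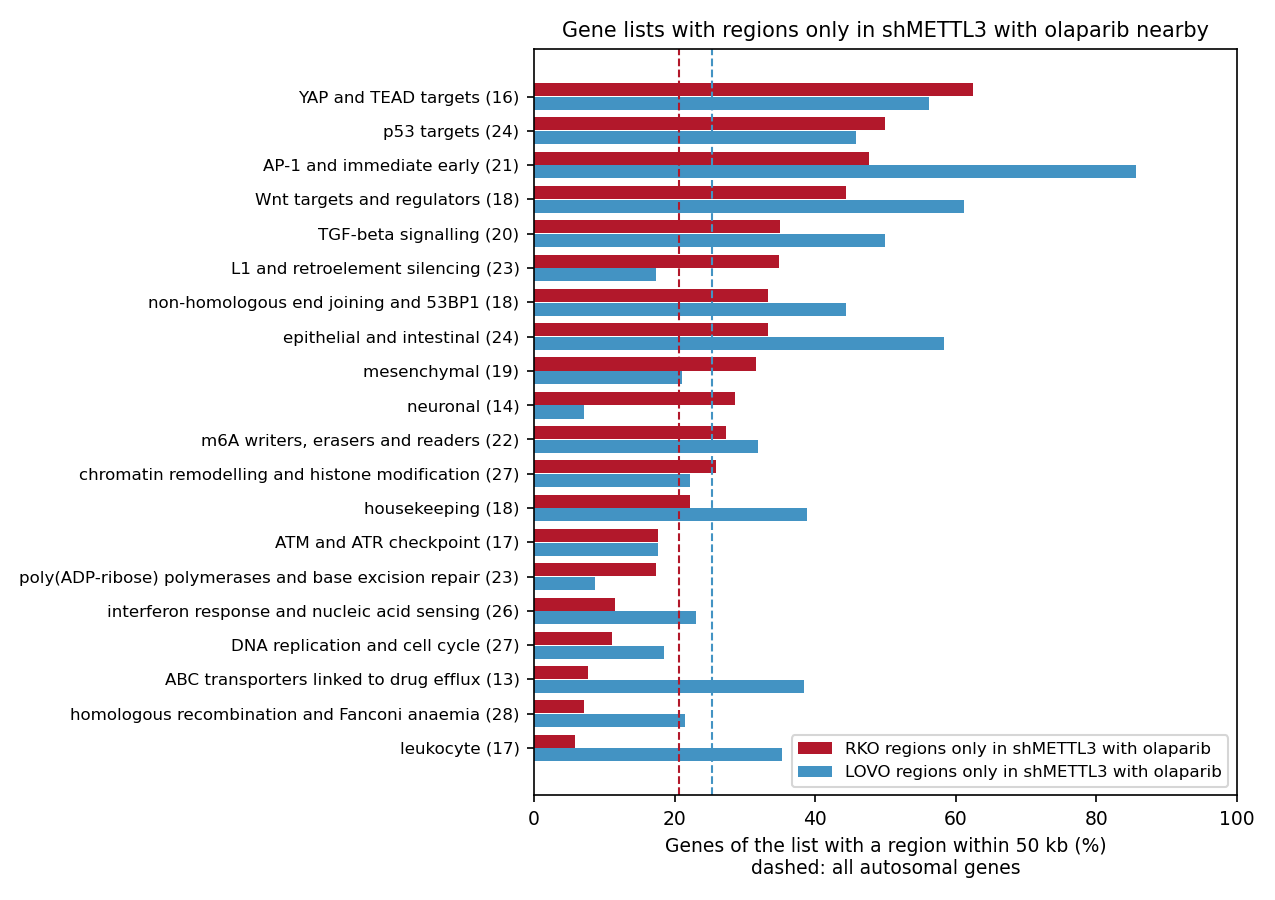
Percent of genes in each of 20 lists (number of genes in brackets) with a region assigned to a gene end within 50 kb; red, regions listed only in RKO shMETTL3 with olaparib; blue, regions chosen by the same rule in LOVO; dashed lines, the same over all autosomal protein-coding genes (20.6% in RKO and 25.3% in LOVO). YAP and TEAD targets stand at the top in RKO with 62.5% and reach 56.3% in LOVO, where AP-1 and immediate early genes are highest at 85.7%, and homologous recombination and leukocyte genes are at the low end in RKO.

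Lists that mark cell types differed in their share of genes with a member. Epithelial and intestinal genes had an interval at an end in another RKO list for only 7 of 24, so these defining markers were mostly without one in RKO. Of these genes 8 had a member nearby (33.3%, beside 20.6% of all autosomal genes). Their 12 members were 26.7% of their list regions, beside 16.8% of all assigned regions. HNF4A and GATA4, transcription factors of gut epithelium, had 3 each, of which 1 was open in LOVO. CLDN4, a tight junction gene, had 1 that was open in 4 LOVO lists, and CDX1 had 1 that was in none. CLDN7 was opened by a member with a score of 3.85. The gene had an interval at an end in all 5 LOVO lists, but this member met none in the 3 scored ones. Mesenchymal genes had 6 of 19 with a member nearby (31.6%), and members were 28.6% of their list regions. ZEB1, a repressor of epithelial genes, had 3 in its body, VIM, which encodes vimentin, had 1 with a score of 11.4, SNAI1 had 1 at a gene end and SNAI2 1 between genes. COL1A2, a collagen gene, was opened with a score of 5.20. Neuronal genes had 4 of 14, SNAP25, NEFM, NEUROD1 and STMN2, with SNAP25, a synaptic fusion protein gene, opened with a score of 6.002. Leukocyte genes had 1 of 17 (5.88%), LYZ, with members as 15.4% of their list regions, and none was opened. At their ends 6 of 19 mesenchymal, 3 of 14 neuronal and 6 of 17 leukocyte genes had an interval in another RKO list. Of the genes without one, 1 of 17 epithelial, 1 of 13 mesenchymal and 1 of 11 neuronal genes were opened, beside 3.27% over all such genes.

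In the interferon and nucleic acid sensing list 3 of 26 genes had a member nearby (11.5%, beside 20.6% of all autosomal genes). Members were 9.38% of their list regions, beside 16.8% of all assigned regions. OAS2, an antiviral enzyme gene, was opened by chr12:112978258-112978632, a member of 375 bp with a score of 6.33 that was open in all 5 LOVO lists. IFI27 had 1 with a score of 3.06 and IFIT2 1 with a score of 4.002. For L1 and retroelement silencing it was 8 of 23 (34.8%), with 10 of 44 regions (22.7%) and no gene opened. ATF7IP, a partner of the histone methyltransferase SETDB1, had 2 members in its body with scores of 5.34 and 8.003. TRIM28, the co-repressor of zinc finger proteins, had 1 of 374 bp, MPHOSPH8, a subunit of the HUSH complex, had 1, and DNMT1, the maintenance DNA methyltransferase gene, had 1. Chromatin remodelling genes had 7 of 27 (25.9%), housekeeping genes 4 of 18 (22.2%) and ABC transporters of drug efflux 1 of 13 (7.69%), ABCC1. Members were 13.2%, 11.1% and 11.1% of the list regions of these 3 lists. The shares of these lists rest on 13 to 28 genes each, and no list was tested.

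Members were spread over many genes. Of the 7077, 4733 were assigned to a gene end within 50 kb, and they fell on 3939 genes, of which 3280 had exactly 1 member. With only members at or above the list's median score counted, none of the 10 genes named next kept more than 1. FRMD8 and SMURF2 had 6 each, DNAJB6 5, and ASAP2, BCL2L1, CAPRIN2, CCNE1, ERGIC1, KRR1 and LAMB3 were the first by symbol of those with 4. FRMD8, which stabilises a membrane protease complex, had 6 of its 11 list regions as members, 1 of them open in LOVO. A run of 5 members nearest to FRMD8 lay at chr11:65425242-65457349, outside the gene, which ends at 65413525. Only protein-coding genes were assigned, so a non-coding gene at these members would not be named. SMURF2, a ubiquitin ligase gene of TGF-beta signalling, had 6 of 16, with none open in LOVO. For DNAJB6, a chaperone gene, it was 5 of 9, again with none open in LOVO. BCL2L1, the gene of the survival factor BCL-XL, had 4 of 12, and CCNE1, the gene of cyclin E1, 4 of 9, of which 3 were open in LOVO. LAMB3, a laminin chain gene of epithelial attachment, had 4 of 10. At FRMD8 the gene and its flanks of 50 kb held 16 regions in RKO shMETTL3 with olaparib, 9 in shControl with olaparib, 5 in untreated shMETTL3, and 8 and 9 in the scored and merged untreated shControl lists. At SMURF2 the same lists held 20, 15, 4, 12 and 12, and at DNAJB6 they held 12, 3, 2, 2 and 6. Of the 12 at DNAJB6, 7 were members.

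Chained by gaps of at most 50 kb, 4745 members (67.0%) stood alone, and 736 stood in 219 runs of 3 or more. The 4 longest runs had 7 members each. One covered 115.5 kb of chromosome 17 from P4HB to NOTUM, where the list of shMETTL3 with olaparib held 18 regions and that of shControl with olaparib 11. Another lay at KLF14 and MKLN1 on chromosome 7, with 27 and 18 regions. The run at LOC124901803 and DNAJB6 on chromosome 7 had 12 and 3, and the one at TNFRSF10D, TNFRSF10A and CHMP7 on chromosome 8 had 11 and 2. TNFRSF10A and TNFRSF10D encode a death receptor and a decoy receptor for the ligand TRAIL. The next 3 runs had 6 members each, at LAMB3 and G0S2, at ZEB1 and at SMURF2. Across the run at ZEB1, 6 of the 7 regions of the list were members, none was open in LOVO, and their scores ran from 3.58 to 8.56.

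The 10 highest-scoring members lay mostly between genes. The highest, chr17:53106266-53106438, was 716575 bp from KIF2B, a kinesin gene, had a score of 26.4 and was open in LOVO shMETTL3 with olaparib only. The next, chr7:110358171-110358316, was 304400 bp from IMMP2L, had a score of 24.7 and was in no LOVO list. The member in the body of CACHD1, chr1:64574419-64574591, had a score of 21.998 and was in no LOVO list. The others were nearest to OOSP4B, TRPS1, NR5A2, LOC101927345, RPIA, THAP6 and AARD, with scores of 19.1 to 21.6. The one nearest to LOC101927345 was open in 3 LOVO lists, and the other 6 were in none. With the 2 next, in the bodies of SHANK2 and KCTD1, the 10 highest-scoring members in no LOVO list are complete, and their scores run from 18.9 to 24.7. Such members were only 121 to 280 bp wide among the first 10, whereas the widest members scored low. The widest, chr1:209634214-209635284, spans 1071 bp in the body of LAMB3 with a score of 4.17. The next were at SLC16A3, a lactate transporter gene (781 bp, score 3.70), MCCD1 (751 bp, 4.44), FAM83H (685 bp, 3.34) and RPS19, a ribosomal protein gene (683 bp, 4.70), and the last 3 of these were at a gene end and open in a LOVO list.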

How the data were processed

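ATAC-seq libraries of RKO and LOVO cells were made with a commercial kit, per the labels' protocols. The submitters' processing notes name the build hg38 and the tools MACS2 2.2.7.1, Bowtie2 2.4.2, DiffBind 3.0.15 and Trim Galore 0.6.6, and give them neither roles nor an order. The shift applied to reads, their filters and the way samples of a group were combined are not stated in the labels. The authors deposited 10 lists of interval positions, 5 per line. In 6 of them the authors gave each interval the score of its called peak, as deposited, without stating which column of the caller it is. Peak names in these 6 carry the group and rep1, and whether the scores are those of 1 replicate is not stated. The 4 merged lists, of untreated cells, hold interval positions only. Depth is unknown from such lists.

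Regions were set against lists by overlap of at least 1 bp (bedtools 2.31.1; Python 3.11.15, numpy 2.4.6, pandas 2.3.3, scipy 1.17.1, matplotlib 3.10.9). The overlap code was tested on simulated data: it differed from a comparison of all pairs at 0 of 34510 regions. Both untreated shControl lists of a line were treated as 1 group. No p-value was computed. Genes, promoters and hairpins came from RefSeq tables on GRCh38.p14, the assembly hg38 names: 19122 autosomal protein-coding genes, of which 15100 have a promoter of 300 bases. All 422 entries of 20 gene lists matched a symbol.

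The members and the gene lists were chosen with earlier results of these data known. Genes named are the 10 with most members, up to 4 per list with a member within 50 kb and up to 4 opened, those at the 10 highest-scoring and 5 widest members, at the longest runs, at the 10 highest-scoring members in all 5 and in no LOVO list, at the edge of the rule, and METTL3. The genes under printed sequences, those at RKO regions that met a LOVO region of the same rule, and the genes and hairpins named in the closing section were picked with their values in view. Alternatives were other overlaps, a score minimum, each RKO list left out, chromosomes X and Y, other LOVO lists and other gene windows. Weighting by score and width, lists of equal number and the score steps were added after the data were seen.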

Additional observations from a re-analysis of the deposited data

How the results depend on the processing

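The 7077 members became 6524 to 9682 under 7 of the alternatives, and 1848 when only regions at or above the median score of the list counted. The share open in any LOVO list, 26.9%, was 25.8% with gaps of up to 500 bp counted as overlap, 29.0% when overlap had to cover 50% of a region, 31.2% with the score minimum, 29.7% without the list of shControl with olaparib in the rule, 28.2% without the scored and 34.9% without the merged untreated shControl list. It was 24.6% when LOVO had to cover 50% of the region, 24.9% over the 3 scored LOVO lists, 14.5% over the 2 merged ones, and 17.4% over the 3 scored lists held to equal number, the last chosen after seeing the data. The share at gene ends, 12.3%, was 8.46%, 14.6%, 4.76%, 13.1% (without shControl with olaparib) and 17.3% (without merged shControl) under the same changes to the members, and 6.74% with windows of 500 bp, 20.2% with 2500 bp and 7.15% at starts only. The 266 genes opened became 55 with the score minimum, 557 without merged shControl and 139 at starts only, which leaves out genes with no known start. In all, 20 of 42 such values stayed within the interval of the share or within 1.5 times the count. So did 70 of 80 counts of members at the 10 genes with most members; the other 10 are these genes with the score minimum, where each had 0 or 1. No paired analysis was possible because each list stands for a group and none for a sample, and for the same reason no replicate could be left out. Unknown depth limits every count of regions missing from a list.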

Other observations

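The share of the RKO list of shMETTL3 with olaparib that was listed only there differed between chromosomes. It was lowest on chromosome 19, with 295 of 1932 regions (15.3%, 13.7 to 17.0), and highest on chromosome 13, with 185 of 729 (25.4%, 22.3 to 28.7). Chromosomes 18, 8 and 20 followed with 25.04%, 24.9% and 24.3%. Under the same rule in LOVO, chromosome 19 was also lowest with 14.8%, and chromosome 18 had 24.7%.

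By the same rule in each line, 26 genes had an interval at an end only in shMETTL3 with olaparib in both RKO and LOVO. There were 266 such genes in RKO and 431 in LOVO. Only genes with no interval at an end in the 4 other lists of a line could be among them. In RKO these were 8132 of 19122 autosomal protein-coding genes, of which the 266 are 3.27%. The matching number for LOVO is not given here. Whether 26 is more than unrelated lists would share was not tested. The 26 include CCL5, a chemokine gene, TNFRSF19, the gap junction gene GJA10, ARHGAP11B, AHNAK2, ABR and PKD1. The member at GJA10 had a score of 14.0 in RKO and its partner 5.56 in LOVO, and at ARHGAP11B the scores were 12.7 and 11.9. ARHGAP11B, PKD1 and GPR89A, also among the 26, have near-identical copies elsewhere in the genome, so their values are uncertain.

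In 95 members the peak name also stood on another interval of the list, and for 77 of them that other interval was no member. At ODAPH, by contrast, both members at its start stood under 1 peak name with the same score of 10.8.

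Of 1562 microRNA hairpins in the table, 3 lay under a member, MIR219A1, MIR6834 and MIR6073, against 65 under another region of the list.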
